A study of Homo sapiens with 18 samples.

Results

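PATU-8988T, an established line of human pancreatic ductal adenocarcinoma, was exposed to DCLK1-IN-1, a compound that inhibits the kinase DCLK1, and the change in its transcripts between 24 h and 6 h of exposure is described here. The comparison rests on 6 of the 18 libraries of the series, chosen by line, treatment and time as labelled: 3 from cells kept for 24 h in 2.5 µM DCLK1-IN-1 and 3 from cells kept for 6 h in the same dose. The other 12 libraries are 3 of PATU-8988T in the vehicle DMSO for 24 h, and 9 of a second pancreatic cancer line, PATU-8902, in the same 3 conditions. The series record names biological triplicates of each condition. All cells came from 1 culture collection and grew in the same serum-containing medium, and each line is a single established line. DMSO was given for 24 h only, so the effect of the inhibitor and that of time in culture cannot be told apart in this comparison.

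Polyadenylated RNA was measured as FPKM (fragments scaled by transcript length and library, so that levels of different genes are per length). Of 26249 genes in the table, the 11477 whose mean over the 18 libraries reached 1 FPKM were tested. Each library was shifted to a common median on the scale log2(FPKM + 1), called the centred scale below, and changes are the 24 h mean minus the 6 h mean unless stated otherwise. The table gave no counts, so sequencing depth is unknown. In each library compared, 6997 to 7066 rows shared 1 common value, called the floor here, which lay between 0.0795 and 0.111 FPKM, and few rows lay under it. Spike-in RNAs were level in the deposited values, with average log2 deviations between 0.00 and 0.05 in these 6 libraries. Whether the deposited values had already been scaled to the spike-ins was not tested. Of the epithelial markers, the keratin gene KRT8 (199 ± 11.2 FPKM at 24 h against 260 ± 65.9 FPKM at 6 h, SD, n = 3 each) and KRT18 were abundant, while the ductal keratins KRT7 and KRT19 and the adhesion gene CDH1 were near the floor, with CDH1 at most 0.192 FPKM. The mesenchymal filament gene VIM was abundant too, but of the 17 mesenchymal markers only 6 reached the filter. SPARC, COL1A1, TWIST1 and ZEB2 were among those that did not. None of the 10 acinar and endocrine and none of the 5 endothelial markers reached the filter, and the summed FPKM of those lists was at most 1.10 in each of the 6 libraries. Of the 6 immune markers 1 reached the filter, CD68, with a mean of 4.49 FPKM over the 6 libraries. Of the 7 pancreatic fibroblast markers 1 did, ACTA2, with a mean of 8.37 FPKM.

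Cells make cholesterol by the mevalonate pathway, in which HMGCS1 makes the precursor of mevalonate and later enzymes such as IDI1, SQLE and CYP51A1 build the sterol. The genes of this pathway are switched on by the transcription factor SREBP2, encoded by SREBF2, when sterols in the endoplasmic reticulum run low. INSIG1 encodes an anchor that holds SREBP in the endoplasmic reticulum and is itself a target of SREBP. Pancreatic carcinoma cells, like other dividing cells, use this pathway for membranes and for lipid anchors of signalling proteins such as RAS.

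No gene passed the threshold between 24 h and 6 h in PATU-8988T. With limma and Benjamini-Hochberg adjustment over the 11477 genes, 0 genes (0%) had an adjusted p below 0.05, and the smallest adjusted p was 0.397, for HMGCS1. Leaving out any 1 of the 9 PATU-8902 libraries, which bear on the filter and the shared estimate of spread, gave a smallest adjusted p between 0.696 and 0.804. At an unadjusted p below 0.05 there were 544 genes (4.74% of those tested), 304 higher at 24 h (2.65%) and 240 lower (2.09%). That count ran from 198 without 24 h replicate 2 to 972 without PATU-8988T DMSO replicate 1. As deposited, without centring, the split at that unadjusted level was 16 higher and 649 lower. The libraries of the 2 times did not overlap for 1019 genes on the higher side (8.88%) and 1402 on the lower side (12.2%). The standard error of the change had a median of 0.11 on the log2 scale, and for 11211 genes (97.7%) the 95% interval lay within 1 log2 unit of 0. The names that follow are therefore the genes with the smallest unadjusted p and members of gene lists, and none of them is a call. Genes were ranked only if their times did not overlap on the centred scale. Non-overlap of a ranked gene is thus a condition of its choice, not a result.

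The 10 genes ranked first on the lower side included genes of sterol synthesis and its control, among them HMGCS1, INSIG1 and SQLE. HMGCS1, the synthase of HMG-CoA, had 15.4, 14.2 and 19.1 FPKM at 24 h, against 22.2, 25.9 and 35.6 FPKM at 6 h. The centred change of HMGCS1 was -0.40 ± 0.07 (SE, 95% interval -0.54 to -0.25). All 3 libraries at 24 h lay below all 3 at 6 h, which the ranking rule required on the centred scale. Its adjusted p was 0.397 in the limma fit over 18 libraries and 0.0374 without PATU-8988T DMSO replicate 1, a library that is in neither group and bears on the estimate of spread. That was the 1 fit of 28 alternatives in which HMGCS1 passed. In the others the limma adjusted p was for example 0.0587 without PATU-8988T DMSO replicate 3, 0.824 with the replicate block and 0.989 with cyclic loess. INSIG1 had 8.24, 7.13 and 9.93 FPKM at 24 h, against 11.9, 13.2 and 18.8 FPKM at 6 h, a centred change of -0.38 ± 0.09. SQLE, the squalene epoxidase, had 51.1, 51.4 and 64.3 FPKM at 24 h, against 63.9, 78.6 and 105 FPKM at 6 h. On the centred scale SQLE differed by -0.20 ± 0.05, and its times did not overlap there, although its highest value at 24 h lay just above its lowest at 6 h in deposited FPKM. The limma adjusted p of INSIG1 and SQLE was 0.855 each.

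**Figure D1:**
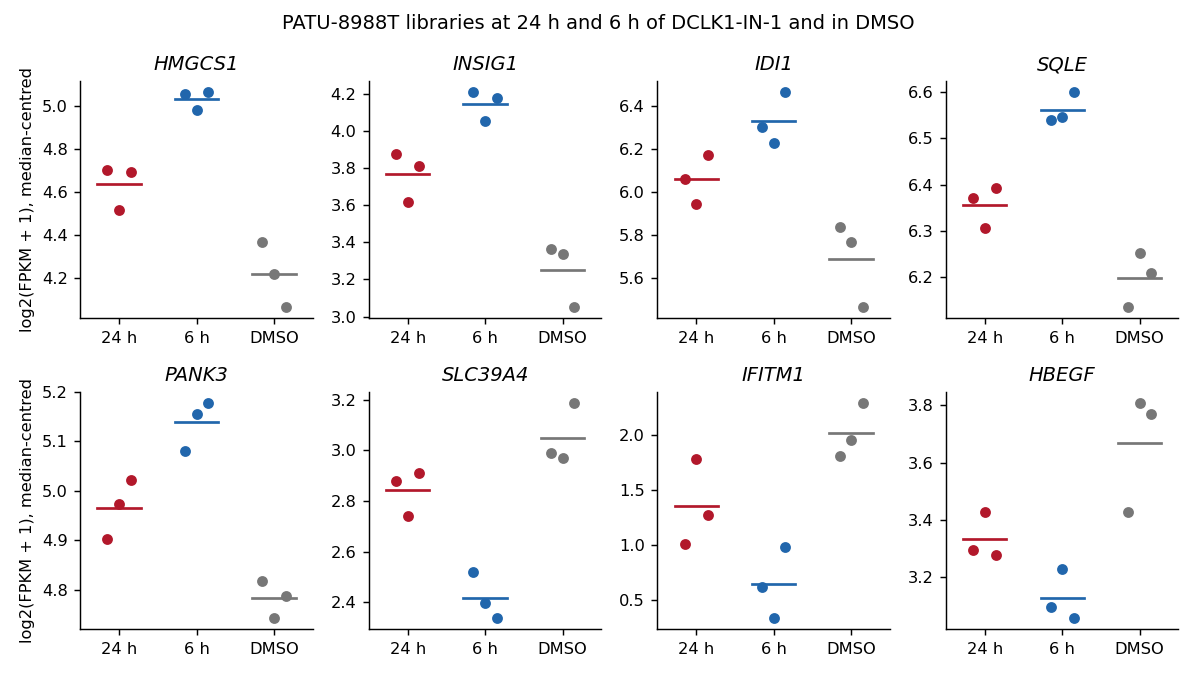
Centred log2(FPKM + 1) of 8 genes in each PATU-8988T library (points) with the mean of each group (bars), at 24 h of inhibitor, at 6 h of inhibitor and in DMSO for 24 h. For HMGCS1, the 24 h libraries lie between 4.52 and 4.70, the 6 h libraries between 4.98 and 5.07 and the DMSO libraries between 4.07 and 4.37.

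The rest of the cholesterol list did not move as one. Of its 23 enzymes, all tested, 13 were below 0 and 10 above 0 on the centred scale, with a median change of -0.05, where 45.2% of all genes tested were below 0 and the median of all genes was 0.02. With cyclic loess in place of the median shift, the list's median was 0.00 and on the positive side of 0. At an unadjusted p below 0.05 there were 4 members of the 23, each lower at 24 h, among them HMGCS1, SQLE and IDI1. Of all genes tested, 2.09% were lower at that level. IDI1, the isomerase that makes the second isoprenoid unit, had 41.0, 39.9 and 55.1 FPKM at 24 h, against 54.0, 62.9 and 95.4 FPKM at 6 h, a centred change of -0.27 ± 0.09. MSMO1, a sterol methyl oxidase, had a similar difference with a wider error (-0.26 ± 0.15). The enzymes at the other end were MVD, which decarboxylates mevalonate diphosphate (0.30 ± 0.16), and LSS, which closes the sterol rings (0.22 ± 0.11). The sterol reductase DHCR7 had a change of 0.12 ± 0.13.

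Genes that control or take up sterols were as mixed. Of 15 measured members of that list, 9 were below 0 and 6 above, with a median of -0.05. An unadjusted p below 0.05 was found for 2, INSIG1 and PANK3, where the share of all genes was 4.74%. PANK3, a kinase acting on pantothenate at the start of coenzyme A production, had 17.8, 19.8 and 24.3 FPKM at 24 h, against 22.6, 29.4 and 38.5 FPKM at 6 h, a centred change of -0.17 ± 0.06. SREBF2 itself had 14.8 ± 1.31 FPKM at 24 h against 18.9 ± 5.60 FPKM at 6 h (SD, n = 3 each), a centred change of 0.04 ± 0.11. NPC1, which moves cholesterol out of lysosomes, had a centred change of -0.12 ± 0.08. Of the 14 tested genes of fatty acid synthesis, 8 were above 0 and 6 below, with a median of 0.01, and 1, the acyl-CoA synthetase ACSL3, had an unadjusted p below 0.05 (-0.13 ± 0.06).

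At 6 h of inhibitor against DMSO in PATU-8988T, 9 of the 11477 genes tested passed the threshold on the centred scale. No count on another scale is given here. Among the 9 were HMGCS1, INSIG1, SQLE, IDI1 and PANK3. SLC39A4, IFITM1 and HBEGF passed there too. The comparisons share the 6 h libraries, so the values are set side by side and nothing is read from how they go together. On the centred scale HMGCS1 differed from DMSO by 0.42 at 24 h and by 0.81 at 6 h. In deposited FPKM HMGCS1 had 11.7, 19.999 and 15.2 in DMSO, which overlapped the 15.4, 14.2 and 19.1 at 24 h. These DMSO values all lay below the 22.2, 25.9 and 35.6 FPKM at 6 h. The differences that follow are centred too, and deposited DMSO values of those genes are not given here. INSIG1 differed by 0.52 at 24 h and 0.90 at 6 h, IDI1 by 0.37 and 0.64, SQLE by 0.16 and 0.36, and PANK3 by 0.18 and 0.36 at the same times. SLC39A4, a zinc importer, differed from DMSO by -0.21 at 24 h and -0.63 at 6 h, and HBEGF, a ligand of the EGF receptor, by -0.33 and -0.54. The plot of values by library shows these 8 genes in all 3 groups.

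The remaining genes ranked first on the lower side had other roles. TXNIP, which binds and inhibits thioredoxin and follows glucose supply, had 6.88, 7.62 and 9.16 FPKM at 24 h, against 9.93, 12.4 and 15.5 FPKM at 6 h, a centred change of -0.27 ± 0.07. Both times were apart in TXNIP and in the other 5 on the centred scale, as the ranking rule required. ARHGDIB, an inhibitor of GTPase cycling, had 5.07, 5.95 and 5.95 FPKM at 24 h, against 7.72, 9.96 and 11.9 FPKM at 6 h, a change of -0.36 ± 0.09. The transcriptional corepressor CIR1 (-0.28 ± 0.07), PLAC8 (-0.28 ± 0.07), the protein phosphatase PPM1B (-0.21 ± 0.06) and the actin-bundling plastin PLS3 (-0.21 ± 0.06) completed the group. The limma adjusted p of these 6 genes was 0.855.

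The 10 genes ranked first on the higher side had low levels in the main, and most of their differences appeared only after centring. SLC39A4 had 3.63, 3.43 and 4.84 FPKM at 24 h, against 3.0, 3.49 and 4.52 FPKM at 6 h, a centred change of 0.42 ± 0.11. In deposited FPKM the 2 times of SLC39A4 overlapped. IFITM1, an interferon-induced membrane protein with near-identical relatives, had 0.271, 1.28 and 0.877 FPKM at 24 h, against 0.0701, 0.0790 and 1.16 FPKM at 6 h, a centred change of 0.71 ± 0.18. In 2 of the 3 libraries at 6 h IFITM1 lay under the floor value, and the third lay within the 24 h range. TNFRSF21, a death receptor, had 2.91, 2.59 and 2.95 FPKM at 24 h, against 2.36, 2.65 and 3.91 FPKM at 6 h, a centred change of 0.29 ± 0.07. DKK1, a secreted inhibitor of Wnt signalling, had 1.25, 1.43 and 2.22 FPKM at 24 h, against 1.24, 1.31 and 2.45 FPKM at 6 h, a change of 0.33 ± 0.08. The others were the RNA helicase DHX37 (0.30 ± 0.07), the laminin chain LAMA3 (0.26 ± 0.06), the pyruvate carboxylase PC (0.31 ± 0.08), the mitochondrial reductase MARC1 (0.20 ± 0.05), the activin-binding FSTL3 (0.32 ± 0.09) and TRABD2A (0.39 ± 0.11). The limma adjusted p of all 10 was 0.855. As deposited, TNFRSF21, DHX37, LAMA3, DKK1, PC, MARC1 and FSTL3 had changes below 0, between -0.14 and -0.01.

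The overall level of the libraries varied beneath these values, and a shift between the times was not resolved with 3 libraries a group. As deposited, the median log2(FPKM + 1) of the genes tested was 2.87, 2.94 and 3.17 at 24 h, against 3.02, 3.31 and 3.66 at 6 h, a difference of -0.33 (2-sided exact permutation p = 0.2, n = 3 each, where 0.1 is the smallest p possible). Over all 26249 genes, with no filter, the difference was -0.049 (2-sided exact permutation p = 0.1). Leaving out 1 of these libraries at a time gave differences between -0.49 (6 h replicate 1 left out) and -0.17 (6 h replicate 3 left out). The median change of all genes was -0.32 as deposited. The 3 DMSO libraries of PATU-8988T, all kept for 24 h, had medians of 2.83, 3.71 and 3.49, a range that held all 6 inhibitor libraries. RNA was normalised by cell count before the spike-ins were added, and in such bulk libraries fewer cells and less RNA per cell cannot be told apart.

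The centred change also followed the level of a gene. In the 574 genes below 0.5 FPKM over the 6 libraries its median was 0.30, in the 505 genes from 0.5 to 1 FPKM it was 0.20, in the 3178 genes from 1 to 5 FPKM it was 0.09, in the 4055 genes from 5 to 20 FPKM it was -0.01, and in the 3165 genes above that it was -0.05. The median as deposited was -0.03 in the lowest class and -0.39 in the highest. At an unadjusted p below 0.05, the 3 classes below 5 FPKM held 17, 49 and 187 genes higher at 24 h and 0, 0 and 4 lower, and the class of at least 20 FPKM held 7 higher and 162 lower. With cyclic loess the medians were 0.12 in the lowest class, 0.03 from 0.5 to 1 FPKM and -0.01 in each class from 1 FPKM upward, and 327 genes had an unadjusted p below 0.05.

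**Figure D2:**
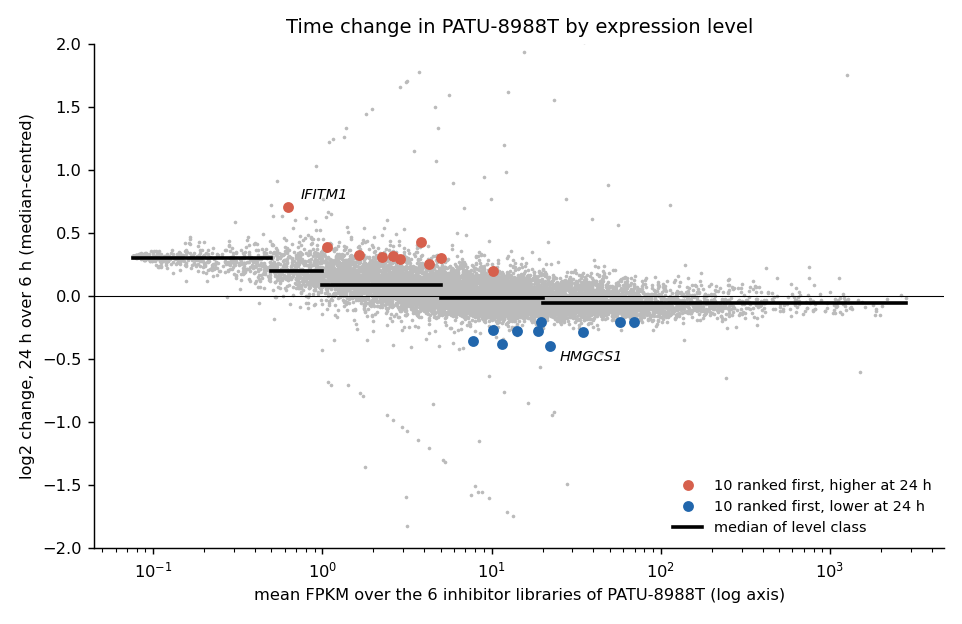
Centred log2 change of 24 h over 6 h for the genes tested (grey points) against their mean FPKM over the 6 libraries on a log axis, with the median of each of 5 level classes (black lines) and the 10 genes ranked first in each direction (coloured). The medians run from 0.30 in the lowest class to -0.05 in the highest, and 53 genes lie outside the plotted range of 2 log2 units.

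DCLK1, the target of the inhibitor and a kinase that binds microtubules, was expressed throughout. It had 19.7, 19.2 and 24.8 FPKM at 24 h, against 23.5, 27.8 and 36.1 FPKM at 6 h, a centred change of -0.09 ± 0.06 with a limma adjusted p of 0.855. The times of DCLK1 did not overlap on the centred scale. Its relatives DCLK2, DCLK3 and DCX and the kinase LRRK2 did not reach the filter. MAPK7, which encodes ERK5, and TNK2 had centred changes of 0.03 ± 0.09 and 0.12 ± 0.11, each with overlapping times.

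Most genes of the cell cycle had small centred changes below 0, and none passed. Of 25 G2/M and mitosis genes, 23 were below 0 and 2 above, with a median of -0.12. An unadjusted p below 0.05 was found for 3 of the 25, where the share of all genes was 4.74%. TOP2A, the topoisomerase that untangles chromosomes before mitosis, had 125, 130.2 and 162 FPKM at 24 h, against 160.1, 199 and 246 FPKM at 6 h, a centred change of -0.19 ± 0.07. The mitotic kinases CDK1 and BUB1 had changes of -0.15 ± 0.07 and -0.13 ± 0.05. The list's members lay at high levels, with a median of 59.1 FPKM, where the median change of all genes was below 0 too, and with cyclic loess the list's median was -0.06. Of 23 G1/S and replication genes, 14 were below 0 and 9 above, with a median of -0.03.

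Stress lists lay mostly below 0 on the centred scale, with no call. Of 17 tested genes of the unfolded protein response, 14 were below 0 and 3 above, with a median of -0.09. Their 4 members at an unadjusted p below 0.05 went both ways, where the share of all genes was 4.74%. The chaperones HSP90B1 (-0.17 ± 0.08) and DNAJC3 (-0.15 ± 0.05) were lower at 24 h at that level, and SDF2L1 (0.37 ± 0.10) and CRELD2 (0.20 ± 0.09), both secretory-pathway proteins, were higher. Of 21 tested ATF4 stress genes, 16 were below 0 and 5 above, with a median of -0.07. ASNS, the asparagine synthetase, had 102, 103 and 121 FPKM at 24 h, against 125, 156 and 203 FPKM at 6 h, a centred change of -0.21 ± 0.07. The tRNA synthetase GARS had a change of -0.15 ± 0.05. Of 18 tested p53 targets, 11 were below 0 and 7 above, with MDM2, the ubiquitin ligase of p53, at -0.25 ± 0.09. Of the 11 heat shock genes, 9 were below 0, with a median of -0.10, and the median of the 12 tested hypoxia genes was -0.10. The times did not overlap, with 24 h lower, for 8 of the 17 unfolded protein response genes, 7 of the 21 ATF4 genes and 5 of the 11 heat shock genes, where the share of all genes was 12.2%. With cyclic loess the medians of these 3 lists were -0.05, -0.03 and -0.02. Their members had median levels of 22.4, 33.5 and 86.5 FPKM, where the median centred change of all genes was below 0 too. The share of non-overlapping genes at those levels was not counted, so the share of all genes is not a matched background.

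Among the lists on the higher side, 3 held many members of low level and the tubulin list held none below 1 FPKM. Of 12 tested NF-kB feedback genes and chemokines, 11 were above 0 and 1 below, with a median of 0.26 centred, 0.13 with cyclic loess and -0.07 as deposited. The 8 NF-kB members at or above 1 FPKM had a centred median of 0.24, with 7 above 0. NFKB2, a precursor subunit of NF-kB, had 7.01, 8.96 and 9.32 FPKM at 24 h, against 6.58, 7.71 and 11.0 FPKM at 6 h, a centred change of 0.35 ± 0.12. In deposited FPKM the times of NFKB2 overlapped. Of 18 tested interferon-stimulated genes, 16 were above 0 and 2 below, with a median of 0.16, and 9 of the 18 had less than 1 FPKM over the 6 libraries. The 9 at or above 1 FPKM had a median of 0.06. Of 16 tested epithelial and ductal markers, 14 were above 0, with a median of 0.31, and 12 of the 16 had less than 0.5 FPKM. The 4 of higher level, EPCAM, KRT8, KRT18 and SOX9, had a median of 0.03, and the list's median as deposited was -0.03. Of the tubulin genes, whose products form the polymer that DCLK1 binds, 11 of 11 were above 0 on the centred scale, with a median of 0.10 centred, 0.14 with cyclic loess and -0.24 as deposited. None of the tubulin genes had an unadjusted p below 0.05, and the smallest change was 0.01 for TUBB.

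The centred medians of the remaining lists lay between -0.03 and 0.12, where the median of all genes was 0.02. ERK feedback genes (0.04), AP-1 and immediate early genes (0.08), LXR targets (0.08), circadian clock genes (0.10), metallothioneins and zinc transporters (0.08), NRF2 targets (0.01), TGF-beta targets (0.12), mesenchymal markers (0.03), lysosome genes (0.02) and SRF/MRTF actin genes (0.00) lay above 0. Glycolysis genes (-0.00), YAP/TEAD targets (-0.01), oxidative phosphorylation genes (-0.02) and cytosolic ribosomal protein genes (-0.03) lay at 0 or below. The 8 TGF-beta targets at or above 1 FPKM had a median of -0.01, and with cyclic loess the circadian list's median was -0.03. Among them SPRY4, an antagonist of ERK signalling, had a change of 0.28 ± 0.08 and the clock repressor NR1D1 one of 0.40 ± 0.12, both at low levels and without a call. Over the 28 lists with at least 5 genes tested, 15 medians were above 0 and 13 below on the centred scale, and all 28 were below 0 as deposited. No member of these lists passed the threshold.

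**Figure D3:**
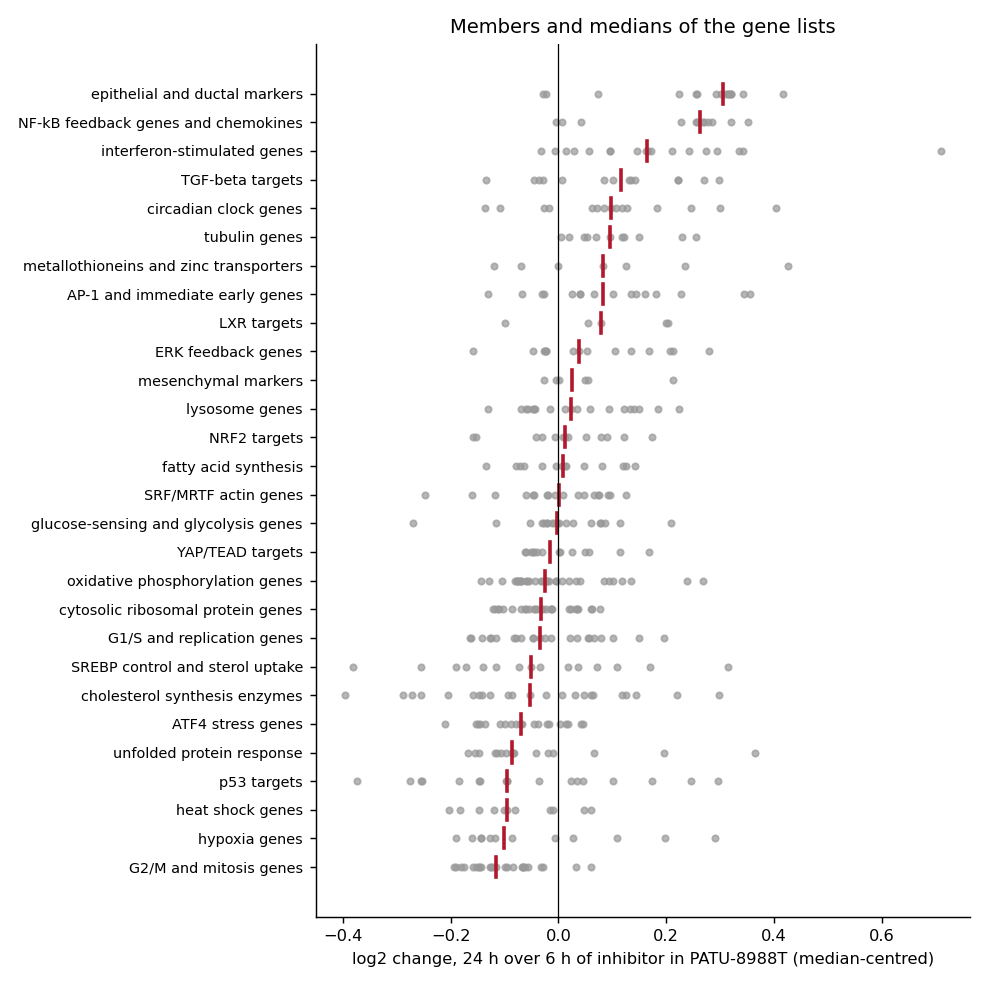
Centred log2 change of 24 h over 6 h in PATU-8988T for each tested member (grey points) and the median (red bar) of the 28 lists with at least 5 genes tested, ordered by median. The medians run from -0.12 for G2/M and mitosis genes to 0.31 for epithelial and ductal markers, of which 12 of 16 had less than 0.5 FPKM.

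The same change of time was measured in PATU-8902, whose libraries enter the PATU-8988T test through the filter and the shared spread, not through the group means. There 28 genes passed (0.244% of those tested), 24 higher and 4 lower at 24 h, on the centred scale, and 0 passed as deposited (197 at an unadjusted p below 0.05). In PATU-8988T 16 of these 28 had changes above 0 and 12 below, with a median of 0.01, against a median of 0.63 in PATU-8902. None of the 28 passed in PATU-8988T, and 5 had an unadjusted p below 0.05, HMGCS1, IDI1, RDH11, SQLE and TXNIP, each lower at 24 h. Of all genes tested, 2.09% were lower at that level in PATU-8988T. Of the 23 cholesterol synthesis enzymes, 12 passed the threshold in PATU-8902, each higher at 24 h. The list's median was -0.05 in PATU-8988T against 0.55 in PATU-8902. TXNIP fell in PATU-8902 (-0.59 ± 0.07, limma adjusted p = 3.26e-04), where the change in PATU-8988T was -0.27 ± 0.07.

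The difference between the lines was tested as an interaction, the change in PATU-8988T minus the change in PATU-8902. It passed for 10 genes (0.0871% of those tested), and all 10 were lower in PATU-8988T, with 1117 genes at an unadjusted p below 0.05. Of the 10, 7 are on the cholesterol list, among them HMGCS1, IDI1, SQLE, CYP51A1, HSD17B7 and C14orf1. The other 3 are IDH1, the cytosolic dehydrogenase that supplies NADPH, ELOVL6, a fatty acid elongase, and RDH11, a retinol dehydrogenase. These counts are on the centred scale, and 0 genes passed as deposited, with rescaling by spike-ins or without a filter on low values (1086, 1334 and 1812 at an unadjusted p below 0.05). Every one of the 10 kept its direction in those 3 fits. The deposited and spike-in scales lower these differences relative to the centred scale, so they could not reverse them. No support is drawn from the kept direction.

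SQLE had the smallest adjusted p of the interaction. Its change was -0.20 ± 0.05 in PATU-8988T against 0.64 ± 0.05 in PATU-8902, a difference of -0.85 ± 0.07 (limma adjusted p = 7.20e-05). HMGCS1 changed by -0.40 ± 0.07 in PATU-8988T against 0.44 ± 0.07 in PATU-8902, a difference of -0.84 ± 0.10 (adjusted p = 5.37e-04). For these 2 genes, and for IDI1 and RDH11, the 95% intervals of the lines lay on opposite sides of 0. C14orf1, a membrane anchor for sterol demethylation enzymes known from its yeast relative, had 17.2, 19.1 and 21.6 FPKM at 24 h, against 17.8, 25.8 and 33.5 FPKM at 6 h in PATU-8988T. Its centred change there was -0.02 ± 0.07, against 0.99 ± 0.07 in PATU-8902, a difference of -1.01 ± 0.10. CYP51A1, the lanosterol demethylase, changed by -0.14 ± 0.07 in PATU-8988T against 0.75 ± 0.07 in PATU-8902. ELOVL6 changed by -0.06 ± 0.06 against 0.78 ± 0.06, and IDH1 by -0.05 ± 0.05 against 0.61 ± 0.05, in the same order of lines. HSD17B7, a sterol-ring reductase at 2.84 ± 0.511 FPKM at 24 h and 4.39 ± 1.01 FPKM at 6 h in PATU-8988T (SD, n = 3 each), differed between the lines by -0.95 ± 0.16. The differences of IDI1 and RDH11 were -0.81 ± 0.13 and -0.52 ± 0.07.

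The interaction was not equally secure for all 10. C14orf1, CYP51A1, ELOVL6, HMGCS1, IDH1, RDH11 and SQLE passed whichever of the 18 libraries was left out. HSD17B7 lost its call in 11 of those 18 fits (adjusted p 0.0552 to 0.146) and IDI1 in 6 (0.050 to 0.0693), with their directions kept. For HSD17B7 they were the inhibitor libraries other than PATU-8988T 6 h replicate 3 and PATU-8902 24 h replicate 3, with PATU-8902 DMSO replicate 2 added. For IDI1 they were PATU-8988T 24 h replicates 1 and 2 and 6 h replicate 3, and PATU-8902 24 h replicate 3 and 6 h replicates 1 and 3. The count of calls was 21 without PATU-8988T DMSO replicate 1. INSIG1 did not pass: its change was -0.38 ± 0.09 in PATU-8988T against -0.27 ± 0.09 in PATU-8902, a difference of -0.11 (95% interval -0.39 to 0.17).

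**Figure D4:**
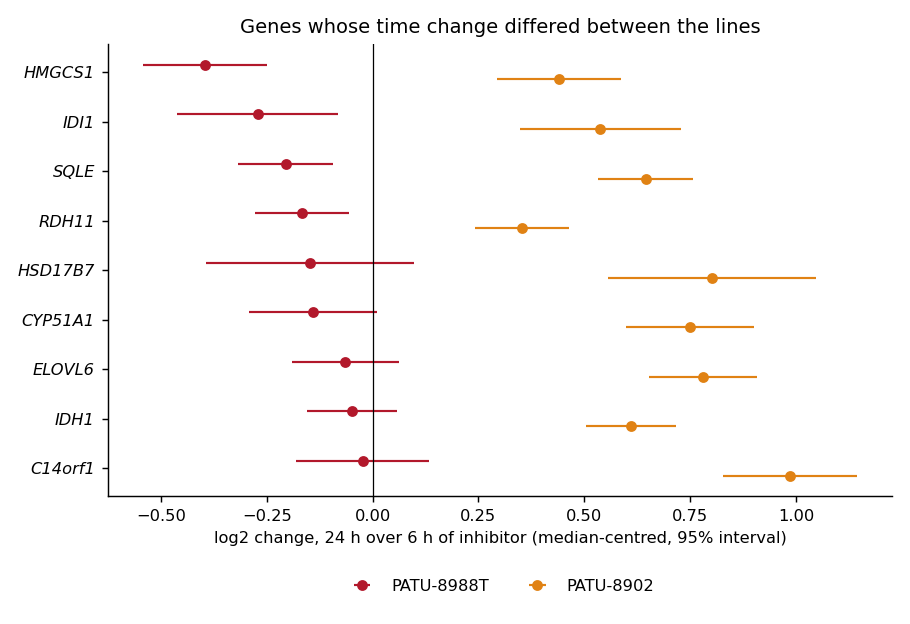
Centred log2 change of 24 h over 6 h of inhibitor, with 95% intervals of the limma fit, for 9 genes whose change differed between the lines, in PATU-8988T (red, upper of each pair) and PATU-8902 (orange, lower). The PATU-8988T values run from -0.40 (HMGCS1) to -0.02 (C14orf1), and every PATU-8902 value lies above 0.

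Since these 10 genes differed in the same direction, their promoters were searched for letters of the sterol regulatory element bound by SREBP and of the CCAAT box bound by NF-Y, a known partner of SREBP. The windows are from RefSeq (GRCh38.p14), from 250 bases before to 50 after a gene's start, and 8 of the 10 genes matched an entry. The element was searched as 8 letters with 1 free base, CACNCCAC, CACCNCAC or CACCCNAC, and the box as CCAAT, all on both strands. A gene can have several windows and was counted if any of them held a match. An 8-letter form was found for 3 of the 8 genes, against 12.9% of the 27305 genes in the table (10.9% of its 35116 windows). CCAAT was found for 6 of the 8 genes, against 39.7% of all genes (34.6% of windows). Those shares are over all RefSeq genes, expressed in these cells or not. A share over the genes tested here was not counted. The 3 windows with an 8-letter form are shown 5′ to 3′ on the gene's strand, with matches on either strand in capitals, to show where both kinds of match lie in genes whose time change differed between the lines. They are HMGCS1 at chr5:43313363-43313662 (minus strand), HSD17B7 at chr1:162790452-162790751 (plus strand) and IDI1 at chr10:1048837-1049136 (minus strand).
HMGCS1: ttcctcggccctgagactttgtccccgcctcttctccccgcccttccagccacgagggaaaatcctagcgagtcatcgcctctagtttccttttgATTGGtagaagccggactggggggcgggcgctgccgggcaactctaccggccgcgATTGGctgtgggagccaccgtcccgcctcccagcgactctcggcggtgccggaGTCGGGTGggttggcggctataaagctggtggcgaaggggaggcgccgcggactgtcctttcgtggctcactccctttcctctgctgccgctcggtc
HSD17B7: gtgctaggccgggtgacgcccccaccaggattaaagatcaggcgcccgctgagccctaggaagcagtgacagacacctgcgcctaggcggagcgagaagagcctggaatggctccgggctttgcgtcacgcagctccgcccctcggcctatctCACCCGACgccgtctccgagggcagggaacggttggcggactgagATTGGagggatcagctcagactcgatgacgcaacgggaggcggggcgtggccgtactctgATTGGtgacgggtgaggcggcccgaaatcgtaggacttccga
IDI1: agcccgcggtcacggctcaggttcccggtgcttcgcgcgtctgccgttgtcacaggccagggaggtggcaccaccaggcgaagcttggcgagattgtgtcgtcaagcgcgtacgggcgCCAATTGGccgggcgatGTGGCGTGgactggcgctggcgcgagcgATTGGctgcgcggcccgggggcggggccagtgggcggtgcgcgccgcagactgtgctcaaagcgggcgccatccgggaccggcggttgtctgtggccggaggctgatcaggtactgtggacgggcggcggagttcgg
HMGCS1 and HSD17B7 hold the form with the sixth base free, and IDI1 holds the form with the fourth base free. In IDI1 the first run of capitals is CCAAT and its reverse complement, which overlap by 2 bases. These are matches of letters in 1 window of each gene, and no binding was measured.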

How the data were processed

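The deposited data are FPKM values of 26341 rows, genes by symbol and spike-ins, in 18 libraries. The authors made these FPKM values with HISAT, Cufflinks and Cuffnorm on hg19, as the submitters' processing notes list them, and versions and strand settings are not given in the sources used here. RNA amounts were set by cell count and received ERCC spike-in RNA ahead of library preparation and single-end sequencing, per the labels' protocols.

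Values were taken as log2(FPKM + 1) for the 11477 genes with a mean FPKM of 1 or more, the 92 spike-ins were removed, and each library was shifted to a common median. The 6 group means over the 18 libraries were fitted in limma 3.58.1 (R 4.3.3) with a trended prior variance and 12 residual degrees of freedom, using 2-sided tests, Benjamini-Hochberg adjustment and a threshold of 0.05. This shares 1 estimate of the spread between groups. The added 1 FPKM shrinks changes of genes at low levels. Library medians were compared by an exact permutation test.

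Named are the 10 genes each way with the smallest unadjusted p whose times do not overlap on the centred scale (spike-ins, small RNAs and LOC symbols not ranked), the DCLK family, members of 34 lists, and genes past the threshold in PATU-8902 at 24 h against 6 h, in the line difference, or in PATU-8988T at 6 h against DMSO. Some genes that meet these rules are not reported here. The lists and rules were chosen with earlier results of these data known. Symbols are those of the table; RefSeq lists C14orf1 as ERG28. None of the 13 mitochondrially encoded genes is in the table, and genes with near-identical copies (IFITM, tubulin and metallothionein families) are uncertain. Alternatives were the scale (as deposited, rescaled by spike-ins, cyclic loess), a pseudocount of 0.1, filters, the replicate number as a block, fits on fewer libraries and leaving out each library.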

Additional observations from a re-analysis of the deposited data

Results flagged for a closer look

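The change between 24 h and 6 h differed between the lines, by the interaction test, for 10 genes. The values are the log2 change in PATU-8988T minus that in PATU-8902 on the centred scale, among them C14orf1 -1.01, HSD17B7 -0.95, CYP51A1 -0.89, SQLE -0.85, ELOVL6 -0.84, HMGCS1 -0.84, IDI1 -0.81, IDH1 -0.66 and RDH11 -0.52. Groups of 3 libraries are too small for a test of single outlying libraries, and none was run.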

How the results depend on the processing

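For 24 h against 6 h in PATU-8988T, 0 genes passed under each other scale, pseudocount, filter and the replicate block. With the 6 libraries alone 2 passed, MIR1282 and SCARNA22, small RNAs at 0.0799 to 0.118 FPKM in the 6 h libraries. Leaving out 1 library gave 0 to 1 calls: MIR573 (0.0866 to 74.9 FPKM at 24 h) without 24 h replicate 1, MIR137 (0.0935 to 51.8 FPKM at 6 h) without 6 h replicate 3, and HMGCS1 without DMSO replicate 1. The 4 small RNAs were named after their values were seen. The count at an unadjusted p below 0.05, 544, was 327 with cyclic loess, 358 with a filter of 5 FPKM, 270 with that filter over the 6 libraries, 990 with the 12 inhibitor libraries, 1599 with the 6 compared, and 198 (without 24 h replicate 2) to 972 (without PATU-8988T DMSO replicate 1) on leaving out 1 library. It was 299 without 24 h replicate 1, 298 without 6 h replicate 2 and 344 without 6 h replicate 3. The line difference, 10 genes, gave 0 as deposited, 0 rescaled by spike-ins, 0 with no filter, 6 with the replicate block (HSD17B7, IDI1 and RDH11 among those lost), 18 with the 12 inhibitor libraries, and 7 to 21 (without PATU-8988T DMSO replicate 1) on leaving out 1 library. The 28 calls in PATU-8902 became 0 as deposited, 0 rescaled by spike-ins, 2 with no filter, 17 with the block, and 17 (without PATU-8902 6 h replicate 3) to 33 on leaving out 1 library. The cause of these moves was not tested. The 12-library fit and the filter over the 6 libraries were chosen after seeing the data.

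Deviations from the group mean in same-numbered libraries of PATU-8988T at 24 h and 6 h had correlations of 0.05, -0.04 and 0.11. These values show no pairing by number, but with 3 libraries a group they cannot exclude one. The block is therefore given as an alternative.

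Some named genes higher on the centred scale were below 0 elsewhere. As deposited, and then rescaled by spike-ins, the log2 changes were -0.039 and -0.054 for TNFRSF21, -0.030 and -0.047 for DHX37, -0.076 and -0.092 for LAMA3, -0.0064 and -0.018 for DKK1, -0.025 and -0.039 for PC, -0.14 and -0.15 for MARC1, -0.014 and -0.028 for FSTL3, and -0.13 and -0.14 for HBEGF. With no filter, LAMA3 was at -0.027, MARC1 at -0.087 and HBEGF at -0.078. HMGCS1, INSIG1, IDI1, SQLE and TXNIP were below 0 in every alternative run, HMGCS1 between -0.75 and -0.34. The deposited and spike-in scales and the fit with no filter lower these changes relative to the centred scale, so those runs could not reverse them.

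With 3 libraries a group and no counts, precision rests on the spread between libraries, and small changes such as those of most lists are not detectable here.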
